A study of Rattus norvegicus with 15 samples.

Results

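Nucleolin (Ncl, ENSRNOG00000018273) and nucleophosmin (Npm1, ENSRNOG00000004616) were followed through 15 cultures of Rat1a, an immortalized rat fibroblast line. Both genes were picked by Ensembl identifier, and they are 2 of the 32545 genes in each count table and 2 of the 13676 genes that passed the low-count filter. The tables hold identifiers alone, so the symbols rest on the rule that picked the genes. There were 5 stable lines and 3 replicate cultures of each. The lines carried mouse MYC with 1 lysine replaced by arginine (K149R in the line R149, K158R in R158 and K323R in R323), wild-type mouse MYC (WT), or an empty vector (EV). Every line kept its own rat Myc locus, was grown in high-glucose medium with serum, and stands for its construct alone, so p-values measure the spread between cultures and not between independent lines of a construct. The RNA of each culture was read as a stranded library of selected mRNA.

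MYC is a transcription factor that pairs with MAX, binds E-box sequences, and is known for raising genes of cell growth and ribosome production. Ribosomes are assembled in the nucleolus, where ribosomal RNA is transcribed, cut and joined with ribosomal proteins. Nucleolin is an RNA-binding protein that acts in transcription and early processing of ribosomal RNA. Nucleophosmin is a nucleolar histone and ribosome chaperone that acts in later processing and export of ribosomal subunits. Both are abundant and are often read as markers of ribosome production under MYC. Lysine and arginine share a positive charge, but arginine cannot be acetylated, and the question of the study was what acetylated lysines of MYC do for gene regulation.

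The promoter windows of both genes are shown because MYC and MAX bind the E-box CACGTG and because both genes were higher in the same lines. They run from 250 bases before to 50 bases after the start of the gene in RefSeq, build GRCr8, which is not the Rnor_6.0 build of the count tables. Capitals mark matches to the wider E-box CANNTG, which reads the same on both strands and includes CACGTG.
Ncl, chr9:94456034-94456333, minus strand: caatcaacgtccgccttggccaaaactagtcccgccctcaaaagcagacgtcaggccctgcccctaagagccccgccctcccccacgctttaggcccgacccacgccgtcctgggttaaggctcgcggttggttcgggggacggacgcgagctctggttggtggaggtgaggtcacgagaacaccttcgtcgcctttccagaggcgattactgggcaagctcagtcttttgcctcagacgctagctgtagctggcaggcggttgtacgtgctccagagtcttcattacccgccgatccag
Npm1, chr10:18255692-18255991, minus strand: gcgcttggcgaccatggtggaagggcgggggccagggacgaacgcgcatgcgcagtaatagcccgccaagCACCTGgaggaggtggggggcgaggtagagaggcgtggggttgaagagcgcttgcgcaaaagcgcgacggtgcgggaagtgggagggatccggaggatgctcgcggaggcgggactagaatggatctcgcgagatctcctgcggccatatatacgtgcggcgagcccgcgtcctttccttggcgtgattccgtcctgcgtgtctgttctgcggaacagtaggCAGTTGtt
CACGTG occurred 0 times in either window, while 6.42% of 33469 rat promoter windows of the same length held it. CANNTG occurred 0 times in the Ncl window and 2 times in the Npm1 window, as CACCTG starting at position -180 from the gene start and CAGTTG starting at position 43. Of all windows, 72.1% held at least 1 CANNTG. A match or its absence in these windows says nothing of MYC binding, which was not measured here.

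Libraries held between 13303631 and 108933235 counts in genes. Ncl had between 20720 and 88055 counts outside R149 replicate 3, the deepest library, which had 172425, and Npm1 had between 28369 and 304722. The widest 95% Poisson half-width of a member's count was 1.36%, so counting error was small beside the spread between cultures. Levels are given as CPM, counts brought to a common library total, after trimmed mean of M values (TMM) scaling between libraries. Each CPM value is a share of the mRNA read, so more of a transcript and less of the remaining RNA per cell cannot be told apart. Markers of fibroblasts could not be read, since identifiers were not paired with names. The level of the introduced mouse MYC was not read apart from rat Myc, since the counts are assigned to rat genes. Whether its reads entered the count of rat Myc was not tested. Replicate 1 had the fewest genes detected in each of the 5 lines, at unequal depths, down to 13955 genes in R149 replicate 1.

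Nucleolin mRNA was higher in all 4 MYC lines than in EV. Its level was 2491, 1881 and 1614 CPM in the 3 R149 libraries, 2225, 1274 and 1668 CPM in R158, and 2158, 1899 and 1717 CPM in R323. It was 2214, 1851 and 1804 CPM in WT, against 1046, 1074 and 1159 CPM in EV. Every MYC library lay above every EV library, and the lowest was R158 replicate 2, close above EV. That held for Ncl and Npm1 alike, and for 11.8% of all genes tested. The means were 1995 ± 449 CPM in R149, 1722 ± 478 in R158, 1925 ± 222 in R323 and 1956 ± 225 in WT, against 1093 ± 58.9 CPM in EV (SD, n = 3 each). The 3 EV cultures were thus closer to each other than those of any MYC line.

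Against EV, Ncl was 1.83-fold higher in R149, with a log2 fold change of 0.87 ± 0.18 (SE) and an edgeR adjusted p of 0.00187. It was 1.58-fold higher in R158 (0.66 ± 0.18, adjusted p 0.016) and 1.76-fold higher in R323 (0.82 ± 0.18, adjusted p 0.00379). In WT it was 1.79-fold higher, at 0.84 ± 0.18 with an adjusted p of 0.00378. Calls were made below an adjusted p of 0.05, with adjustment over all 13676 genes. Genes called higher made up 18.2% of those tested for R149, 14.4% for R158, 14.1% for R323 and 12.6% for WT. The call in R158 was lost without EV replicate 1 (adjusted p 0.0515), EV replicate 2 (0.0521) or R158 replicate 1 (0.0961).

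Nucleophosmin mRNA was also higher in every MYC line than in EV. Its level was 3835, 2760 and 2852 CPM in R149, 3339, 3132 and 2296 CPM in R158, and 3144, 2239 and 2132 CPM in R323. It was 3368, 2722 and 2292 CPM in WT, against 1731, 1608 and 1523 CPM in EV. No MYC library overlapped the EV range, and replicate 1 was the highest library of each of the 5 lines. The means were 3149 ± 596 CPM in R149, 2922 ± 552 in R158, 2505 ± 556 in R323 and 2794 ± 541 in WT, against 1621 ± 105 CPM in EV (SD, n = 3 each).

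**Figure D1:**
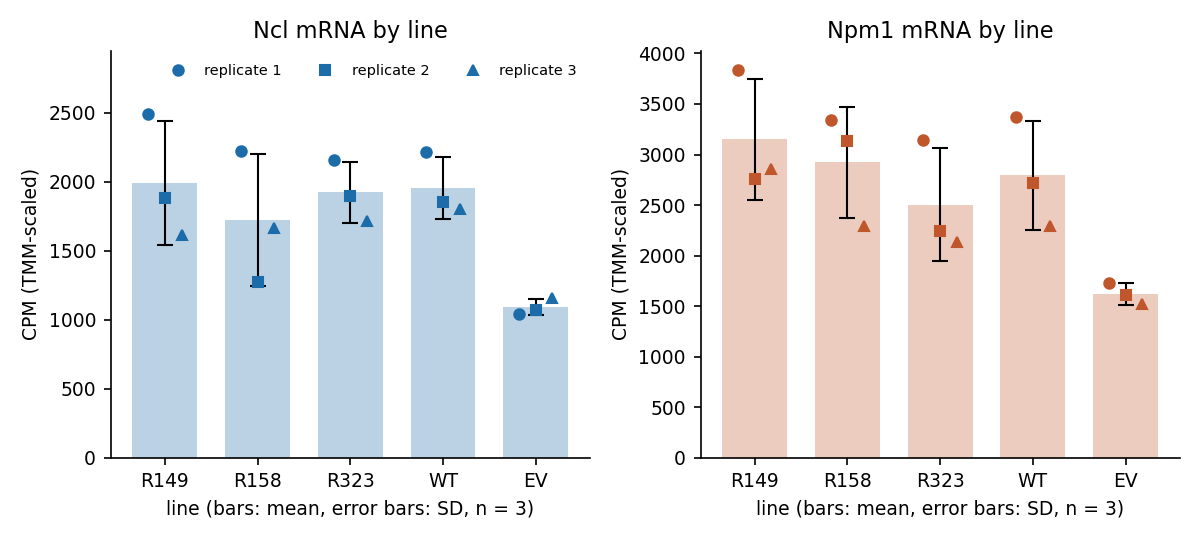
TMM-scaled CPM of Ncl and Npm1 in each library (points, shaped by replicate number), with the mean (bar) and SD (error bar) of the 3 libraries of each line. All 12 MYC libraries lie above the 3 EV libraries for both genes, and R158 replicate 2 is the lowest MYC library for Ncl at 1274 CPM but not for Npm1 at 3132 CPM.

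Npm1 was 1.94-fold higher in R149 than in EV (log2 fold change 0.96 ± 0.19 SE, edgeR adjusted p 0.00103) and 1.80-fold higher in R158 (0.85 ± 0.19, adjusted p 0.00423). In R323 it was 1.55-fold higher (0.63 ± 0.19, adjusted p 0.0185), and in WT 1.72-fold higher (0.79 ± 0.19, adjusted p 0.00621). The call in R323 was lost without EV replicate 2 (adjusted p 0.0568), EV replicate 3 (0.0691) or R323 replicate 1 (0.0959). Both genes were thus called higher in each of the 4 MYC lines, as were 7.45% of the genes tested. These 4 comparisons share the same EV libraries. As a mean over the 4 MYC lines, the log2 fold change against EV was 0.80 ± 0.15 for Ncl and 0.81 ± 0.15 for Npm1 (SE, adjusted p 0.000742 and 0.000747). This comparison called 20% of genes higher.

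The share of a library's mRNA counts taken by these 2 genes changed with their levels. Ncl held 0.195% ± 0.0403 of all gene counts in R149, 0.169% ± 0.0449 in R158, 0.194% ± 0.0154 in R323 and 0.196% ± 0.0154 in WT, against 0.112% ± 0.00451 in EV (SD, n = 3 each). Npm1 held 0.308% ± 0.0511 in R149, 0.285% ± 0.0452 in R158, 0.252% ± 0.0461 in R323 and 0.280% ± 0.0457 in WT, against 0.166% ± 0.0128 in EV. The shares use no scaling factor, and they kept the lines in the order of the scaled levels except that WT stood just above R149 for Ncl.

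The rises were of moderate size but stood high among all genes ranked by signed change. By size of change in either direction they exceeded from 76.1% (Npm1 in R323) to 86.9% (Ncl in WT) of genes. In WT against EV the log2 fold change of Ncl ranked 569th and that of Npm1 669th from the top of 13676 genes. In R149 they ranked 663rd and 531st, in R158 1113th and 586th, and in R323 672nd and 1224th. The signed difference was larger than for most abundant genes. In the most abundant 10% of genes by mean log2 CPM (1368 genes), Ncl had a larger log2 fold change in WT than 98.7% and Npm1 than 98.2%. The lowest such values were 95.03% for Ncl in R158 and 94.3% for Npm1 in R323. Within these 10%, 31.7% of genes were called higher in R149, 24.9% in R158, 18.8% in R323 and 18.1% in WT. Over all 4 MYC lines, 298 other genes had fold changes at least as large as those of Ncl in every line, and 11 of them were in the most abundant 10%. For Npm1 the numbers were 280 and 10.

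**Figure D2:**
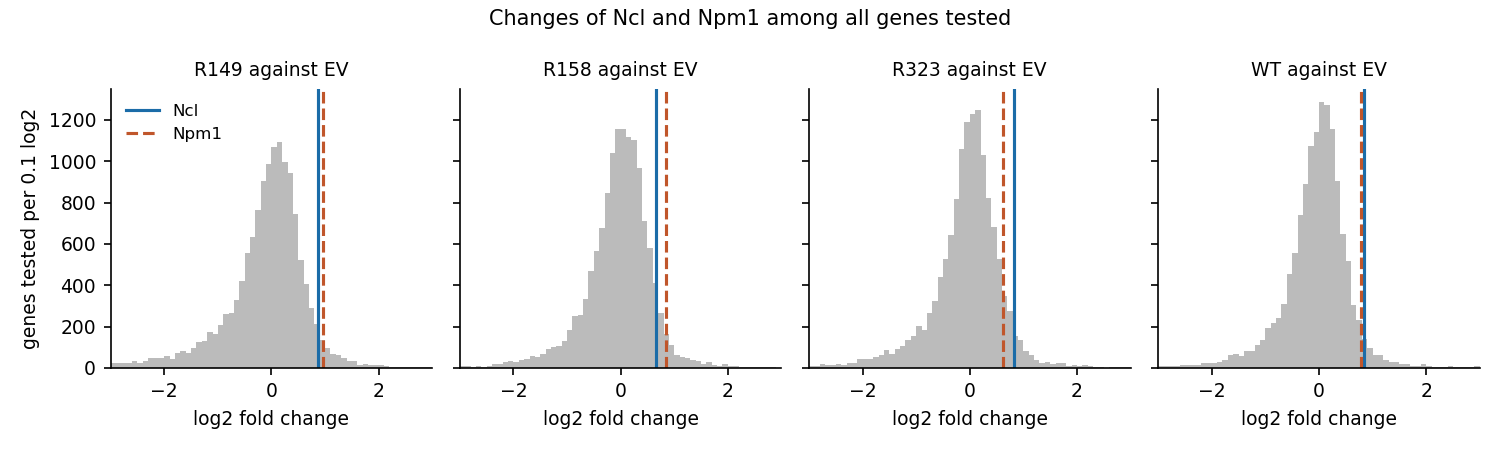
Number of tested genes per 0.1 log2 unit (grey bars) by log2 fold change of R149, R158, R323 and WT against EV, with Ncl (solid line) and Npm1 (dashed line); genes beyond ±3 are not shown. Both genes lie on the right flank of each distribution, between 0.63 and 0.96 log2 units.

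The comparisons of mutants with WT asked whether a substituted lysine altered the level of either gene, and none was called. In R149 the log2 difference from WT was 0.03 ± 0.18 for Ncl (SE, edgeR adjusted p 0.982) and 0.17 ± 0.18 for Npm1 (0.804). In R158 it was -0.18 ± 0.18 for Ncl (0.757) and 0.06 ± 0.18 for Npm1 (0.93). In R323 it was -0.02 ± 0.18 for Ncl (0.996) and -0.16 ± 0.18 for Npm1 (0.987). The libraries of mutant and WT overlapped in all 6 cases. In libraries of equal replicate number, which deviated together among the MYC lines, Npm1 differed from WT by 0.19, 0.02 and 0.32 log2 units in R149 and by -0.10, -0.28 and -0.10 in R323, each of 1 sign. With the replicate number as a block the difference of Npm1 was 0.18 ± 0.11 in R149 (SE, edgeR adjusted p 0.42) and -0.16 ± 0.11 in R323 (0.64), again not called. The Npm1 of R158 and the Ncl of each mutant differed from WT in both directions over the 3 pairs. Like signs in 3 pairs arise with a chance of 0.25 where both signs are equally likely. The share of all genes with like signs was not counted. These comparisons called 1.18%, 0.6% and 0.892% of all genes in R149, R158 and R323.

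The intervals of the fit without the block state what sizes of difference remain possible. As a fold of WT, the 95% interval for Ncl ran from 0.779 to 1.33 in R149, from 0.673 to 1.15 in R158 and from 0.752 to 1.29 in R323. For Npm1 it ran from 0.858 to 1.48 in R149, from 0.796 to 1.37 in R158 and from 0.683 to 1.18 in R323.

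**Figure D3:**
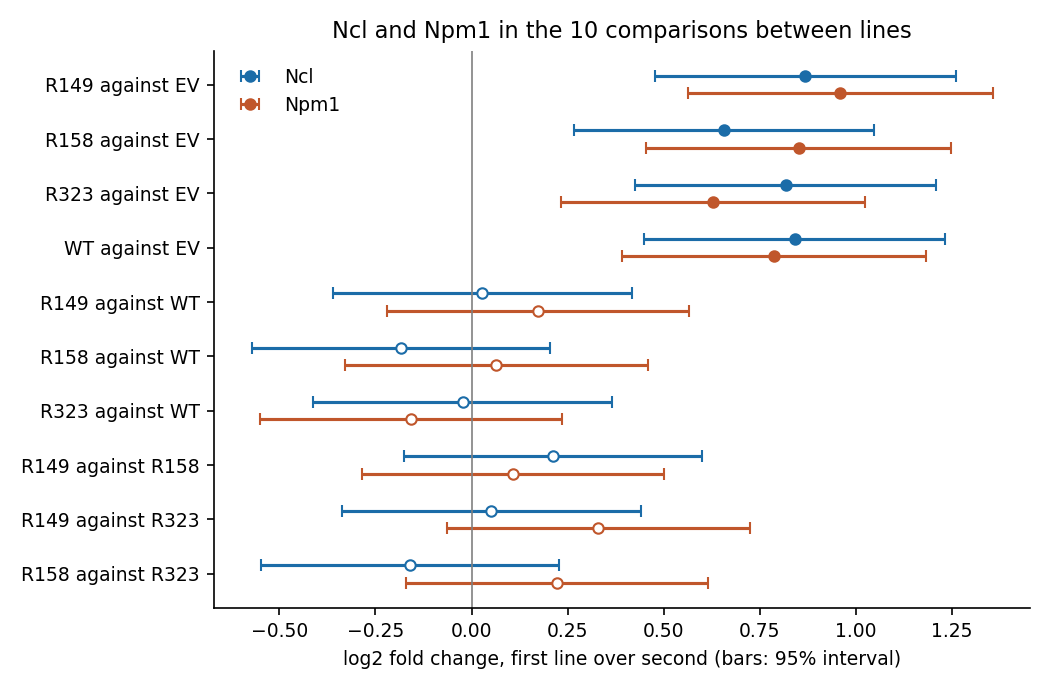
Log2 fold change of Ncl and Npm1 in the 10 comparisons between lines, first line over second, with 95% intervals; filled points were called at an adjusted p below 0.05. The 8 values against EV are filled and lie above 0, while the intervals of the other 12 cross 0.

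Ordered by mean level, Ncl stood highest in R149, then WT, R323, R158 and EV. Npm1 stood highest in R149, then R158, WT, R323 and EV. In either order no neighbouring pair of MYC lines was called different, and the one called step was between EV and the MYC line next above it. Among mutants, the widest difference was that of Npm1 between R149 and R323, at 0.33 ± 0.19 (log2, SE, edgeR adjusted p 0.51). Without R149 replicate 1 it was 0.15, and without R323 replicate 1 it was 0.51. In libraries of equal replicate number R149 was above R323 by 0.29, 0.30 and 0.42 log2 units. The ranges of the lines still overlapped, since R323 replicate 1 at 3144 CPM was above R149 replicates 2 and 3. The other mutant pairs differed by 0.21 (R149 over R158), 0.05 (R149 over R323) and -0.16 (R158 over R323) for Ncl. For Npm1 they differed by 0.11 (R149 over R158) and 0.22 (R158 over R323). These comparisons called 1.27% (R149 against R158), 1.07% (R149 against R323) and 0.936% (R158 against R323) of all genes, and Ncl and Npm1 were not among them.

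The ratio of the 2 genes within a library needs no scaling between libraries. Ncl had 64.9, 68.1 and 56.6 counts per 100 Npm1 counts in R149, 66.6, 40.7 and 72.6 in R158, and 68.6, 84.8 and 80.5 in R323. It had 65.8, 68.0 and 78.7 in WT, against 60.4, 66.8 and 76.1 in EV. The ranges of WT and EV overlapped. The log2 ratio in WT exceeded that in EV by 0.07, with an exact two-sided permutation p of 0.6. With 3 libraries against 3 no p below 0.1 was possible, so these tests could call no shift of one gene against the other. The R149 libraries lay below the R323 libraries without overlap, by -0.30 log2 units, with an exact permutation p of 0.1, the smallest this design allows, and 0.5 after Benjamini-Hochberg adjustment over 10 comparisons. The exact permutation p of the other 8 comparisons lay between 0.2 and 0.9.

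**Figure D4:**
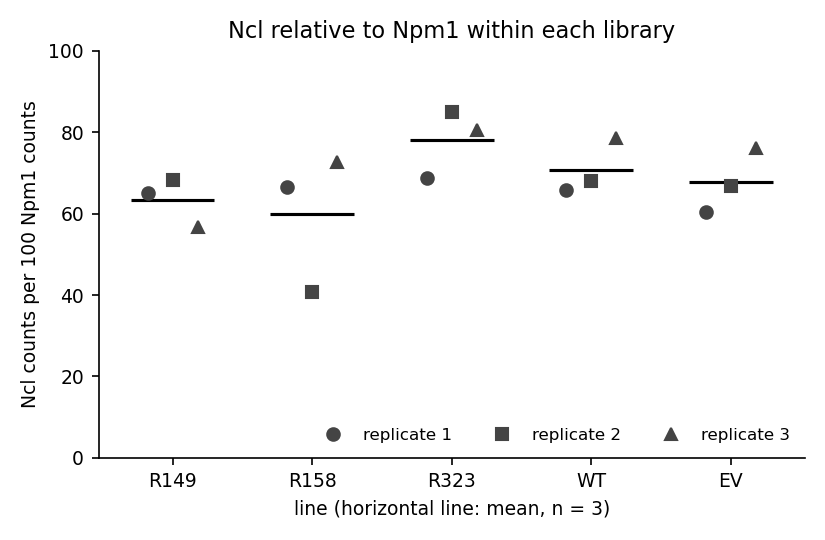
Ncl counts per 100 Npm1 counts in each library (points, shaped by replicate number), with the mean of each line (horizontal line, n = 3). Of the 15 libraries 14 lie between 56.6 and 84.8, and R158 replicate 2 lies at 40.7.

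One culture departed from this balance. R158 replicate 2 had 36140 Ncl counts and 88828 Npm1 counts. Its Ncl level was -0.60 log2 units from the mean of the other 2 R158 libraries, while its Npm1 level was 0.18 above. Among the most abundant 10% of genes, 56 deviated further down in that library than Ncl, or 4.09%. R149 replicate 3 came next, with Ncl at -0.42 and Npm1 at -0.19 from the other 2 R149 libraries, and there 7 abundant genes (0.512%) deviated further down than Ncl. With R158 replicate 2 left out, the difference of Ncl between R158 and EV was 0.83 (log2, edgeR adjusted p 0.00497) and that between R158 and WT was -0.01. Without R158 replicate 1 the difference from WT was -0.42, and with replicates 2 and 3 alone it was -0.32, beside -0.18 with all libraries, and it was called under none of these. The Ncl to Npm1 log2 ratio of R158 against EV changed sign when R158 replicate 2 was left out, from -0.21 to 0.04.

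Both genes varied more between cultures of a line than most abundant genes did. The pooled SD within lines was 0.25 log2 units for Ncl and 0.26 for Npm1, higher than for 89.1% and 89.8% of the most abundant 10% of genes, whose median was 0.16. Much of this followed the replicate number. Replicate 1 had the highest Npm1 level in all 5 lines and the highest Ncl level in all 4 MYC lines, and in EV the highest Ncl level was in replicate 3. Against the other 2 libraries of its line, replicate 1 was higher in Ncl by 0.52 log2 units in R149, 0.61 in R158, 0.26 in R323 and 0.28 in WT. Of the most abundant 10% of genes, 97.1%, 98.8%, 74.3% and 72.7% had a lower deviation than Ncl in these libraries, in that order. For Npm1, replicate 1 was higher by 0.45 in R149, 0.32 in R158, 0.53 in R323 and 0.43 in WT, against 0.15 in EV. The shares of abundant genes with a lower deviation than Npm1 were 94.9%, 81.4%, 96.6% and 93.1%, against 78.8% in EV. The part of the low gene detection of these libraries in their Ncl and Npm1 levels was not tested.

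The difference from EV was present for each replicate number. For Ncl, libraries of number 1, 2 and 3 differed from EV by 1.25, 0.81 and 0.48 log2 units in R149, by 1.09, 0.25 and 0.53 in R158, and by 1.05, 0.82 and 0.57 in R323. In WT they differed by 1.08, 0.79 and 0.64. For Npm1 the differences were 1.15, 0.78 and 0.91 in R149, 0.95, 0.96 and 0.59 in R158, 0.86, 0.48 and 0.49 in R323, and 0.96, 0.76 and 0.59 in WT. All 24 of these differences were above 0, as the lack of overlap between MYC and EV libraries already required. That lack of overlap held for 11.8% of all genes tested. The difference of number 1 was the largest in 7 of the 8 sets. These sets are not separate observations, since those of a gene share the same EV libraries, of which replicate 1 was the lowest for Ncl. Equal numbers of EV and a MYC line did not deviate together by over 0.1 in every pair for any MYC line. With replicates 2 and 3 alone all 8 changes against EV were smaller and stayed called, with log2 fold changes between 0.39 and 0.83.

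The genes whose levels ran most like each member were sought over the 15 libraries, among 12023 other genes with a mean of at least 1 CPM. Likeness was the Pearson correlation of log2 CPM, given as a description, since the EV and MYC libraries form separate sets and cultures of a line share their origin. The gene closest to Ncl was ENSRNOG00000008664, with r = 0.994 over 15 libraries and 0.988 within the 12 MYC libraries. It stood at 444 ± 113 CPM in R149, 387 ± 113 in R158, 447 ± 65.0 in R323 and 454 ± 60.0 in WT, against 244 ± 4.56 CPM in EV (SD, n = 3 each). In the R158 line its level was 511, 291 and 360 CPM in replicates 1, 2 and 3, libraries that entered its choice.

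The gene closest to Npm1 was ENSRNOG00000056878, with r = 0.993 over 15 libraries and 0.991 within the MYC libraries. It stood at 128 ± 22.7 CPM in R149, 122 ± 17.2 in R158, 104 ± 22.5 in R323 and 116 ± 22.5 in WT, against 67.6 ± 6.19 CPM in EV (SD, n = 3 each). In the R158 line its level was 135, 128 and 102 CPM, again in libraries that entered its choice. The next closest genes had r = 0.990 with Ncl and 0.991 with Npm1. The names of these genes are not given by the sources used here. With r above 0.9 there were 314 genes for Ncl (2.61% of the 12023) and 394 for Npm1 (3.28%). The 39 genes in both lists made up 12.4% of the Ncl list and 9.90% of the Npm1 list. Npm1 itself had r = 0.804 with Ncl over the 15 libraries and ranked 954th among the genes closest to it. Within the 12 MYC libraries the value was 0.463, and within the 11 MYC libraries other than R158 replicate 2 it was 0.818. That library was left out because its ratio of Ncl to Npm1 was the lowest, so a higher value without it follows from that choice. Values without any other library were not computed, and 0.818 is given as a description alone.

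**Figure D5:**
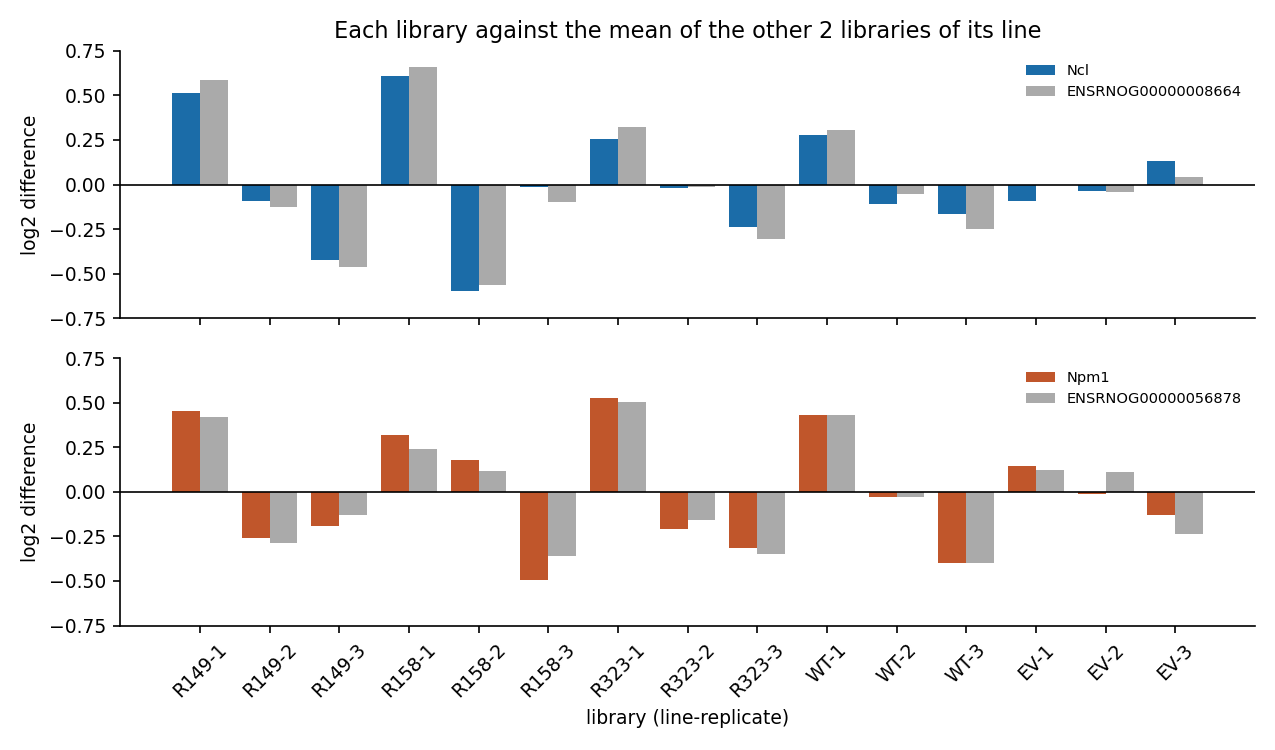
Log2 CPM of each library minus the mean of the other 2 libraries of its line, for Ncl and for Npm1 (coloured bars), each beside the gene closest to it by correlation over the 15 libraries (grey bars). In R158 replicate 2, Ncl stands at -0.60 and Npm1 at 0.18. The closest genes were chosen on these same libraries, so their course is shown as a description.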

How the data were processed

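Stranded (dUTP) mRNA libraries of 15 cultures were analysed, per the labels' protocols. The deposited values are raw counts per gene in 1 table per library, with no normalization. TopHat2 2.1.0 and the build Rnor_6.0 are named in the submitters' processing notes. How reads were counted, with which strand setting and annotation, is not given in the sources used here, so reads shared with near-identical copies or antisense genes are uncertain. Processed copies of NPM1 are known in the human genome.

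The main test was edgeR 4.0.16 (R 4.3.3): filterByExpr (minimum 10 counts, 13676 genes kept), TMM factors and 1 quasi-likelihood fit of all 15 libraries with the line as term. Adjusted p-values are Benjamini-Hochberg over all genes tested, called below 0.05. Log2 CPM used a prior count of 2. DESeq2 1.42.0 and limma 3.58.1 (voom), other scalings and filters, a replicate block and libraries left out were alternatives. The fit was checked on simulated counts, which held no shift by replicate number. That check does not cover the replicate pattern of Ncl and Npm1. No replicate pair agreed within counting noise (chi-square per degree of freedom at least 4.24).

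Replicate numbers come from the labels, which tie them to no shared day. Equal numbers deviated together by over 0.1 (correlation across genes) in every pair for the 6 comparisons among MYC lines (lowest 0.127). None of the 4 comparisons with EV reached this in every pair (lowest 0.00523, in R323). The correlations with EV ran from 0.0986 to 0.208 in WT and from 0.0843 to 0.176 in R158. The genes to be named were Ncl, Npm1 and the 2 closest to each by correlation, of which the first is shown by identifier. The lists of ribosome production genes, MYC targets and cell type markers could not be run, since 0 Ensembl identifiers were paired with symbols by the files or the reference table. The members and lists were chosen with earlier results of these data known.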

Additional observations from a re-analysis of the deposited data

How the results depend on the processing

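The 8 changes of Ncl and Npm1 against EV and the 2 changes of the mean of the 4 MYC lines were refitted. Another scaling, filter, tool or set of libraries gave 248 values, each of 1 change under 1 setting. All 248 kept their direction and 242 kept the call. Many left out a library of neither line compared, which left the estimate nearly as it was. The 6 lost calls each left out 1 library of the lines compared, 3 for Ncl in R158 and 3 for Npm1 in R323 against EV. Leaving out 1 library at a time, the log2 change of Ncl in R158 against EV ranged from 0.419 to 0.833 and that of Npm1 in R323 against EV from 0.437 to 0.739. With replicates 2 and 3 alone, Ncl in R158 stood 0.39 above EV (adjusted p 0.0412). No difference between MYC lines was called under any alternative.

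Small differences between MYC lines changed sign. Ncl in R149 against WT was -0.0104 with total counts alone and -0.0702 with replicates 2 and 3 alone, where Ncl in R149 against R323 was -0.0488. Leaving out 1 library at a time, Ncl ranged from -0.176 to 0.160 in R149 against WT, from -0.109 to 0.0758 in R323 against WT, from -0.154 to 0.183 in R149 against R323 and from -0.401 to 0.0148 in R158 against R323. Npm1 ranged from -0.00684 to 0.317 in R149 against WT, from -0.0688 to 0.211 in R158 against WT and from -0.0623 to 0.215 in R149 against R158. The log2 ratio of Ncl to Npm1 ranged from -0.374 to 0.0447 in R158 against EV, from -0.0141 to 0.153 in WT against EV and from -0.143 to 0.276 in R149 against R158. The cause was not tested.

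The replicate block changed no call. With it, Npm1 in R149 exceeded R323 by 0.34 (adjusted p 0.129), and Ncl in R158 stood 0.62 above EV (adjusted p 0.0031). The scalings moved the median of all genes by at most 0.06 log2 units. Counting error was small for both genes at these depths. The list of ribosome production genes could not be run under any setting.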
